A study of Mus musculus with 36 samples.

Results

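The 6 small RNA libraries taken 12 h after drug addition compare an inducible Ikaros line with its empty-vector control in the mouse pre-B cell line B3. They were chosen by line and time in the labels, as replicates 1, 2 and 4 of each line, and are 6 of the 36 samples of a time course of 2 lines and 6 times. The Ikaros line was made by transducing B3 cells with an MSCV retrovirus that encodes HA-tagged wild type Ikaros fused to ERt2, a modified domain of the estrogen receptor that answers to the drug, with GFP behind an IRES. The control line received the same vector with ERt2 and GFP but without Ikaros, and both lines were sorted for GFP as transduced cells and not as single clones. Both groups received the drug 4-OHT (a tamoxifen derivative) at 0.5 uM, so that the drug, the ERt2 domain and GFP are common to them. The 0 h samples used below for comparison received no drug, per the methods of the study. The title, time and description of these samples give 12 h, which was followed here, although their protocol text names 2 h of drug. An Ikaros and a control sample that carry one replicate number share a culture batch (batches 1, 2 and 3 for replicates 1, 2 and 4).

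Ikaros is a zinc finger transcription factor that lymphocyte development depends on, and its entry into the nucleus of B3 cells starts the passage from cycling to resting pre-B cells. MicroRNAs (miRNAs) are short RNAs cut from hairpin transcripts, and they lower the output of mRNAs that pair with their seed, the bases at positions 2 to 8 from the 5′ end. A hairpin can release a mature miRNA from its 5′ arm (5p) and another from its 3′ arm (3p). Of these, the guide arm is the abundant product, and the partner arm is usually degraded. Several clusters act in early B cells, among them that of miR-17 and miR-92a in Mir17hg, which pro-B cells need to survive, and the miR-34 family, which responds to p53.

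The sequences that the results below turn on are printed here as RefSeq gives them (GRCm38.p6), 5′ to 3′, with the seed in capitals, because several of the miRNAs that moved together share a seed. The first group comes from hairpins in introns of Clcn5 on the X chromosome and was higher in the Ikaros line. MiR-500-3p and miR-501-3p share a seed, as do miR-362-5p and miR-500-5p.
miR-188-3p: cUCCCACAugcaggguuugca
miR-188-5p: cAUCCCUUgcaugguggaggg
miR-362-5p: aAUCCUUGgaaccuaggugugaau
miR-500-5p: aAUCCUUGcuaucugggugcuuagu
miR-501-5p: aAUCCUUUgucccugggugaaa
miR-500-3p: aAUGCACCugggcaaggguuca
miR-501-3p: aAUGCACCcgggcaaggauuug
miR-362-3p: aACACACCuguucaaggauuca
miR-532-3p: cCUCCCACacccaaggcuugca

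Outside that cluster, the largest positive differences belonged to miR-10b-5p and miR-10a-5p, which have the same seed and are encoded in the Hox gene clusters.
miR-10a-5p: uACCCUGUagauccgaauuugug
miR-10b-5p: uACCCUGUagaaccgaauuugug

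The miRNAs lower in the Ikaros line included miR-27a-5p, the partner arms of the miR-17 cluster (Mir17hg) and of its relative on the X chromosome, miR-34b-5p with the seed of miR-34a-5p, and miR-127-3p and miR-411-5p of the imprinted Dlk1-Dio3 region.
miR-27a-5p: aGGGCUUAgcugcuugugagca
miR-92a-1-5p: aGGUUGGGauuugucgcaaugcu
miR-19b-1-5p: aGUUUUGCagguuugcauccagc
miR-19b-2-5p: aGUUUUGCagauuugcaguucagc
miR-34b-5p: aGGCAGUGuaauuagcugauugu
miR-34a-5p: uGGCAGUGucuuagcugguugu
miR-127-3p: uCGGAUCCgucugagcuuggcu
miR-411-5p: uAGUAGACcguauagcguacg

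The table held 469 miRNAs as normalised log2 values, from 0.09 to 19.30 over all samples. It gives no counts, so the depth of each library is unknown from it and the precision rests on the 3 replicates. The groups at 12 h had the widest spread of the 12 groups. Their mean variance over miRNAs was 0.316 for Ikaros and 0.294 for control, and 0.0949 to 0.219 in the other 10. Per the design drawn in the study, the Ikaros libraries of 12 h were sequenced on one occasion and the control libraries on another, with Ikaros replicate 2 run on both. The line and the sequencing occasion therefore cannot be told apart here except through the batch correction of the authors. Of the B lineage and haematopoietic markers, 9 were measured and 0 passed the test between the lines, with miR-181a-5p at 17.97 to 18.22 in the Ikaros line, against 18.07 to 18.71 in the control line. No erythroid, muscle or liver marker was in the table, and the myeloid miR-223-3p was at 0.67 to 3.28 in the 6 libraries. The mesenchymal miR-199a-5p and miR-143-3p had a summed level of 1.96 to 2.39 in the Ikaros line, against 2.39 to 2.68 in the control line. Neither passed the test. Of the 8 epithelial markers 4 were called lower, against 9.17% of all miRNAs. The endothelial miR-126a-3p was called higher, against 12.6% of all. Both sets are given below. Of the neural markers, miR-9-5p was at 12.69 to 13.87, and miR-9-5p and miR-9-3p did not pass the test. Ikaros itself is not measured by these libraries, so the labels could not be checked by it.

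At 12 h, 102 of the 469 miRNAs (21.7%) differed between the lines at a Benjamini-Hochberg adjusted p under 0.05 in limma with all 36 samples in one model. The Ikaros line had the higher level for 59 (12.6%) and the lower level for 43 (9.17%). The higher ones differed by 0.39 to 3.19 log2 units with a median of 0.96, and the lower ones had a median of -1.11 and a largest size of -2.39. A difference of at least 1 log2 unit was seen for 29 of the higher and 23 of the lower miRNAs. The same-numbered pairs had the same sign in all 3 for 100 of the 102, against 233 of all 469, and the 2 groups did not overlap for 86 of the 102, against 120 of the 469 (25.6%). The 102 were called on the difference of these same libraries, which favours agreeing pairs and separated groups. Neither count is therefore separate evidence of a difference. The number of calls depended on the estimate of the spread. A fit of the 6 libraries alone, with 4 residual degrees of freedom in place of 24, called 18 miRNAs (3.84%), 13 higher and 5 lower, and a fit with one weight per group, added after the spread was seen, called 42 (8.96%). Per-library weights called 93 (19.8%). With the culture batch added as a block, the count was 105 (22.4%) over all samples and 26 (5.54%) over the 6 libraries. Without replicate 2 of both lines the count was 59. Scaling moved the balance of directions, since quantile normalization gave 41 higher and 50 lower and moved the median difference of all miRNAs from 0.07 to -0.03.

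**Figure D1:**
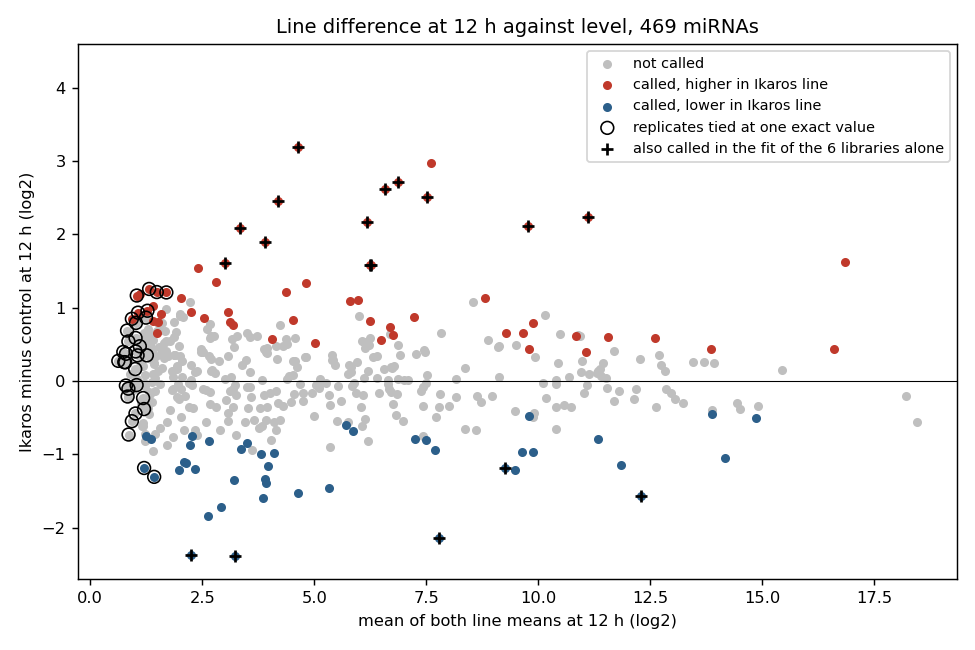
Ikaros minus control at 12 h (log2, y axis) against the mean of both line means (log2, x axis), 1 point for each of the 469 miRNAs. Red points were called higher (59) and blue points lower (43) in the Ikaros line, crosses mark the 18 also called in a fit of the 6 libraries alone, and circles mark the 33 miRNAs with tied replicates, which lie at the low end of the level axis.

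The 18 miRNAs called in the fit of the 6 libraries alone were the 10 of the Clcn5 cluster with miR-497-5p, miR-126a-3p and miR-28a-5p on the higher side, and miR-127-3p, miR-411-5p, miR-27a-5p, miR-92a-1-5p and miR-221-3p on the lower side. All 18 were among the 102. Leaving out each replicate number and each of the 6 libraries in turn, 9 fits in all, kept 40 of the 102 in every fit.

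The Clcn5 cluster gave the largest differences at 12 h. All of its 10 measured members were higher in the Ikaros line, by 1.90 to 3.19 log2 units with a median of 2.34, while the median over all 469 miRNAs was 0.07. Hairpins were located for 9 of the 10, on the minus strand of the X chromosome (GRCm38.p6) in introns of Clcn5, which encodes a chloride and proton exchanger: Mir500 at chrX:7237683-7237774, Mir501 at chrX:7241243-7241351, Mir362 at chrX:7241982-7242046, Mir188 at chrX:7247989-7248056 and Mir532 at chrX:7248402-7248497.

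MiR-532-5p, the most abundant member, stood at 12.73, 12.31 and 11.63 in Ikaros replicates 1, 2 and 4 and at 9.96, 10.00 and 10.00 in the control replicates. The control values were nearly alike, and the lowest Ikaros value was above all of them. They differed by 2.23, with 0.23 as the standard error (SE) and a limma adjusted p = 2.0e-08, a 4.70-fold higher level. MiR-501-3p, the next in level, read 10.60, 11.45 and 10.44 against 8.87, 8.78 and 8.49, a difference of 2.12 (SE 0.33, limma adjusted p = 1.5e-05). Both arms of that hairpin moved, with miR-501-5p at 5.08, 4.83 and 4.62 in the Ikaros line, against 2.70, 2.98 and 3.14 in the control line.

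MiR-188-3p had the largest difference of all 469 miRNAs at 3.19 (SE 0.33, limma adjusted p = 2.0e-08), which is 9.16-fold. Its Ikaros values were close together, at 6.08, 6.32 and 6.27. The control values were 3.52, 1.97 and 3.61, so that control replicate 2 sat apart and the pair of replicate 2 differed by 4.35 against 2.57 and 2.67 in the other pairs. MiR-362-5p, with the seed of miR-500-5p, was at 7.49, 8.38 and 8.79 against 5.40, 5.31 and 5.82. MiR-500-5p, the lowest of the cluster in both lines, was at 3.56, 4.43 and 5.20 against 1.82, 2.61 and 2.47, with the largest SE of the cluster (0.48). MiR-532-3p was at 8.70, 9.28 and 8.31 against 6.16, 6.16 and 6.47, and miR-500-3p at 8.38, 7.95 and 7.34 against 5.74, 4.44 and 5.63. In both, every Ikaros value lay above every control value. MiR-362-3p was at 7.71, 7.25 and 6.80 against 5.23, 4.59 and 5.43, and miR-188-5p at 6.42, 5.10 and 4.71 against 3.54, 2.97 and 2.37. The groups did not overlap for any of the 10. Each of the 10 was called in every fit listed above, those that left out a library included.

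**Figure D2:**
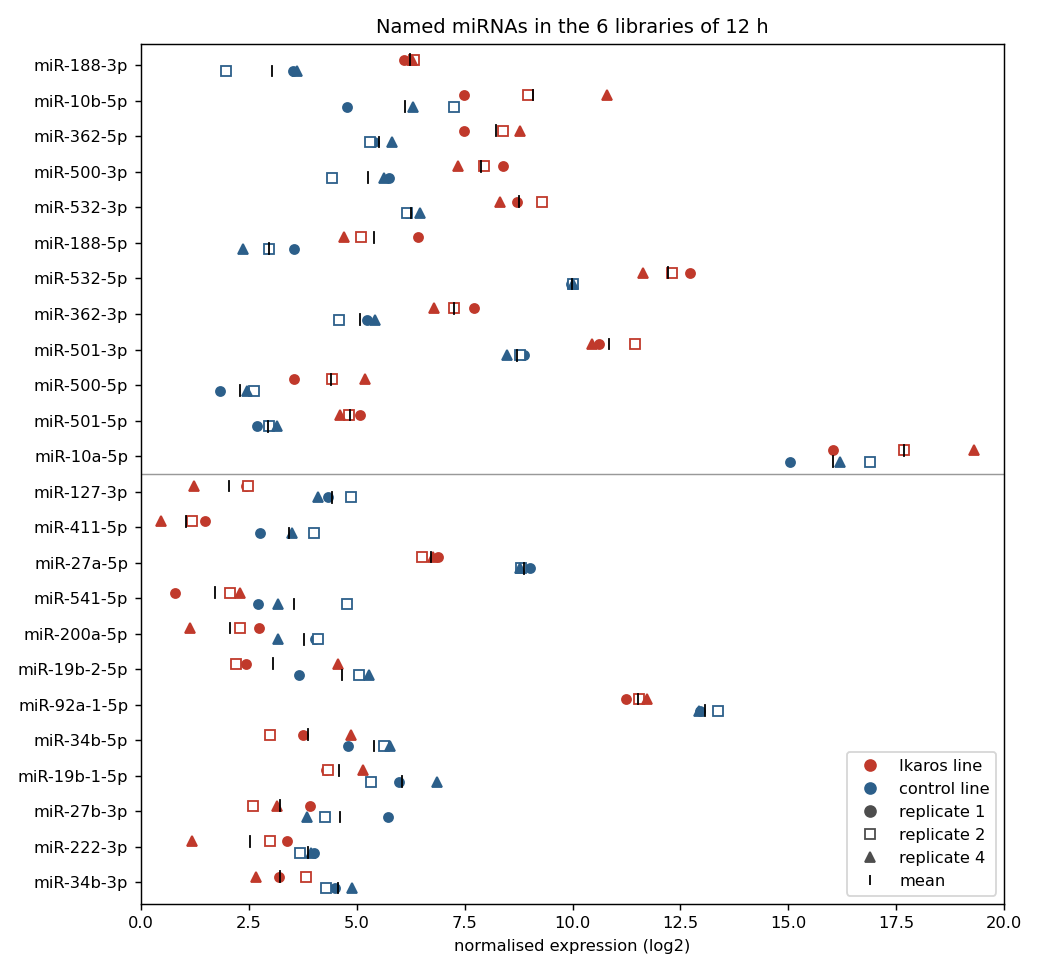
Normalised expression (log2, x axis) of the 24 named miRNAs in each of the 6 libraries of 12 h, with red for the Ikaros line, blue for the control line, marker shape for the replicate and a tick for each mean. The 12 miRNAs above the grey line were higher in the Ikaros line and the 12 below it lower. The groups do not overlap for 20 of the 24, against 120 of all 469 miRNAs (25.6%). The 24 were picked from these same 6 libraries, as the largest called differences whose replicate pairs had one sign. That choice favours separated groups, so the count of 20 is not separate evidence of a difference.

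MiR-10b-5p and miR-10a-5p, both higher in the Ikaros line, varied most between replicates among the named miRNAs. MiR-10b-5p stood at 7.49, 8.96 and 10.80 in the Ikaros line, against 4.77, 7.26 and 6.30 in the control line. Its lowest Ikaros value was just above its highest control value, and the difference was 2.97 (SE 0.68, limma adjusted p = 0.00178, and 0.0511 in the fit of the 6 libraries). MiR-10a-5p was at 16.03, 17.68 and 19.30 against 15.04, 16.89 and 16.18. The value of 19.30 in Ikaros replicate 4 is the highest of the whole table, and on the linear scale it made up 32.4% of that library's total, against 6.28% and 14.7% in Ikaros replicates 1 and 2 and 2.77% to 6.81% in the control line. The groups overlapped, and the difference of 1.63 (limma adjusted p = 0.0402) was 0.89 without replicate 4 of both lines (adjusted p = 0.341). The adjusted p was 0.309 without Ikaros replicate 4, 0.194 without control replicate 1, 0.0816 without Ikaros replicate 2, 0.0629 without control replicate 4 and 0.0517 without replicate 2. The partner arm from the same hairpin, miR-10a-3p, was steadier, at 6.49, 6.65 and 6.43 against 5.19, 5.82 and 5.25, and was called in all 9 fits that left out libraries (1.10, SE 0.25, limma adjusted p = 0.00181).

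MiR-27a-5p had the smallest adjusted p of the comparison (1.6e-09, limma). It is the partner arm of a hairpin that lies with those of miR-23a and miR-24-2 on chromosome 8 (Mir27a, chr8:84208672-84208758, plus strand, with no host gene annotated), a cluster known to restrain B lymphopoiesis. It stood at 6.88, 6.51 and 6.78 in the Ikaros line, against 9.01, 8.82 and 8.78 in the control line. The replicates of each line lay close together and the groups far apart, with a difference of -2.14 (SE 0.19), which is 4.42-fold lower. MiR-23a-5p, the partner arm next to it, was also lower (-1.11, SE 0.32, limma adjusted p = 0.0114), whereas the guide arm miR-23a-3p differed by -0.05 and did not pass. The call of miR-23a-5p was lost without control replicate 4 (adjusted p = 0.128) or Ikaros replicate 1 (0.0696). Of the 10 measured members of the miR-23/27/24 clusters, 3 were lower and 1 higher, against 9.17% and 12.6% of all miRNAs. The lower ones included miR-27b-3p of the second cluster on chromosome 13, a guide arm that acts in lipid metabolism, at 3.92, 2.59 and 3.16 against 5.72, 4.28 and 3.86. Its groups overlapped, and its call (-1.39, limma adjusted p = 0.0359) was lost without control replicate 1 (0.230), Ikaros replicate 2 (0.159), Ikaros replicate 4 (0.0742), replicate 1 (0.122) or replicate 2 (0.149).

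The arms of the miR-17 cluster of Mir17hg are given apart. Of its 6 measured guide arms 0 passed the threshold (median -0.06), while all 6 partner arms had a negative difference (median -0.57) and 2 of them were called lower. Of all miRNAs, 9.17% were called lower. The difference between the arms was not tested. The guide arms were widely spread, with a summed level of 14.01 to 16.91 in the Ikaros libraries, against 14.09 to 15.01 in the control libraries. The replicates of miR-19b-3p and miR-19a-3p, given at the end, lay so far apart that the missing call does not show them unchanged. MiR-92a-1-5p, the abundant partner arm of Mir92-1 (chr14:115044427-115044506, in an exon of Mir17hg), stood at 11.24, 11.54 and 11.73 in the Ikaros line, against 12.94, 13.37 and 12.92 in the control line. The groups stood well apart, and the difference was -1.57 (SE 0.17, limma adjusted p = 5.3e-08), while its guide arm miR-92a-3p, made from 2 hairpins, differed by -0.36 (adjusted p = 0.376). MiR-19b-1-5p of the neighbouring hairpin (chr14:115044305-115044391) was at 4.30, 4.34 and 5.14 against 5.98, 5.32 and 6.85, a difference of -1.46 (SE 0.35, limma adjusted p = 0.00254).

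The related clusters miR-106a-363 on the X chromosome and miR-106b-25 in Mcm7 had 16 measured members, of which 5 were lower and 1 higher, miR-93-3p, whose call was lost in 7 of the 9 leave-out fits (limma adjusted p 0.0761 to 0.184, the highest without Ikaros replicate 1). The 5 lower ones all came from the X chromosome, and 9 mature miRNAs mapped to single hairpins there (chrX:52741693-52742567) had negative differences without exception, with a median of -0.79. The largest belonged to miR-19b-2-5p, which shares its seed with miR-19b-1-5p. It stood at 2.43, 2.2 and 4.56 in the Ikaros line, against 3.65, 5.05 and 5.29 in the control line, with Ikaros replicate 4 inside the control range. The difference was -1.60 (limma adjusted p = 0.00669), and the adjusted p rose to 0.176 without replicate 2, 0.0738 without Ikaros replicate 2 and 0.0512 without Ikaros replicate 1. Over the 9 leave-out fits, 2 to 6 of the 16 were called lower. In the main fit 9.17% of all miRNAs were called lower.

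The miR-34 and miR-449 family, whose guide arms restrain the cell cycle, had 5 of 8 measured members lower and 0 higher, with a median of -0.95. Of all miRNAs, 9.17% were called lower. MiR-34a-5p, of the highest mean level, was at 9.61, 9.01 and 8.83 against 10.37, 9.73 and 10.27 (-0.98, SE 0.17, limma adjusted p = 7.0e-05). MiR-34c-5p was at 8.74, 8.47 and 9.45 against 9.82, 9.99 and 10.47 (-1.21, SE 0.23, limma adjusted p = 0.000247). In both, all 3 Ikaros values lay under all 3 control values. MiR-34b-5p, with the seed of miR-34a-5p, was at 3.77, 2.99 and 4.86 against 4.80, 5.64 and 5.77, so that Ikaros replicate 4 reached the control range. Its difference was -1.53 (limma adjusted p = 0.00711), with 0.166 without replicate 2 and 0.0776 without Ikaros replicate 2. MiR-34b-3p was at 3.20, 3.83 and 2.66 against 4.50, 4.30 and 4.89 (-1.33, limma adjusted p = 0.0119), and its call was lost without replicate 4 (0.183), Ikaros replicate 4 (0.0774), control replicate 4 (0.0567) or replicate 1 (0.0517). MiR-449a-5p, which has the same seed as miR-34a-5p, differed by 0.02 and did not pass. The fit of the 6 libraries called 0 of the 8, and the leave-out fits 3 to 6.

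A stretch of chromosome 12 from 109592846 to 109743795 (GRCm38.p6), inside the imprinted Dlk1-Dio3 region whose miRNAs are expressed from the maternal chromosome, held 8 measured mature miRNAs. The stretch was chosen after its values were seen. All 8 differences were negative, with a median of -1.20, and 5 were called lower, against 9.17% of all miRNAs. The fit of the 6 libraries called 2 and the leave-out fits 3 to 5. The uncalled miR-434-3p, miR-381-3p and miR-409-3p were at the low end, with line means of 0.73 to 1.29 and differences of -0.30, -0.06 and -0.21. Control replicates were tied for miR-381-3p and miR-409-3p, and Ikaros replicates for the called miR-434-5p. MiR-127-3p (Mir127, chr12:109592846-109592915) was at 2.43, 2.48 and 1.23 in the Ikaros line, against 4.34, 4.88 and 4.10 in the control line, a difference of -2.39 (SE 0.39, limma adjusted p = 2.5e-05). MiR-411-5p (Mir411, chr12:109710175-109710256) was at 1.49, 1.20 and 0.46 against 2.76, 4.01 and 3.51, a difference of -2.38 (SE 0.38, limma adjusted p = 2.0e-05). In both, Ikaros replicate 4 was the lowest of the 6 libraries. MiR-541-5p (Mir541, in an intron of the non-coding gene Mirg, chr12:109742409-109742498) was at 0.78, 2.07 and 2.30 against 2.72, 4.77 and 3.18 (-1.84, limma adjusted p = 0.00463). Its groups did not overlap, but its adjusted p was 0.0681 without replicate 2, 0.0642 without control replicate 2 and 0.0515 without Ikaros replicate 1. At 0 h, without drug, 7 of these 8 already differed, where 8.53% of all miRNAs were called. MiR-127-3p was at -2.61 and miR-411-5p at -2.15 there.

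The remaining named miRNAs were lower in the Ikaros line. MiR-200a-5p comes from the miR-200 family, which holds epithelial cells in their state, and stood at 2.74, 2.29 and 1.14 against 4.03, 4.11 and 3.17 (-1.72, SE 0.33, limma adjusted p = 0.000267). Of the 8 epithelial markers measured, 4 were lower and 0 higher, with a median of -0.71 and a summed level of 6.58 to 6.89 in the Ikaros line, against 6.95 to 7.62 in the control line. The share of all miRNAs called lower was 9.17%. The fit of the 6 libraries called 0 of the 8 and the leave-out fits 1 to 4. MiR-222-3p, which lies with miR-221-3p on the X chromosome and shares its seed, was at 3.37, 3.00 and 1.19 against 4.01, 3.68 and 3.94. Its difference of -1.35 (limma adjusted p = 0.00686) was -0.69 without Ikaros replicate 4 (adjusted p = 0.0946) and -0.66 without replicate 4 of both lines (0.168). MiR-221-3p, chosen here for the shared seed after the values were seen, was at 8.41, 8.71 and 8.87 against 9.46, 10.02 and 10.04 (-1.18, SE 0.18, limma adjusted p = 1.4e-05).

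**Figure D3:**
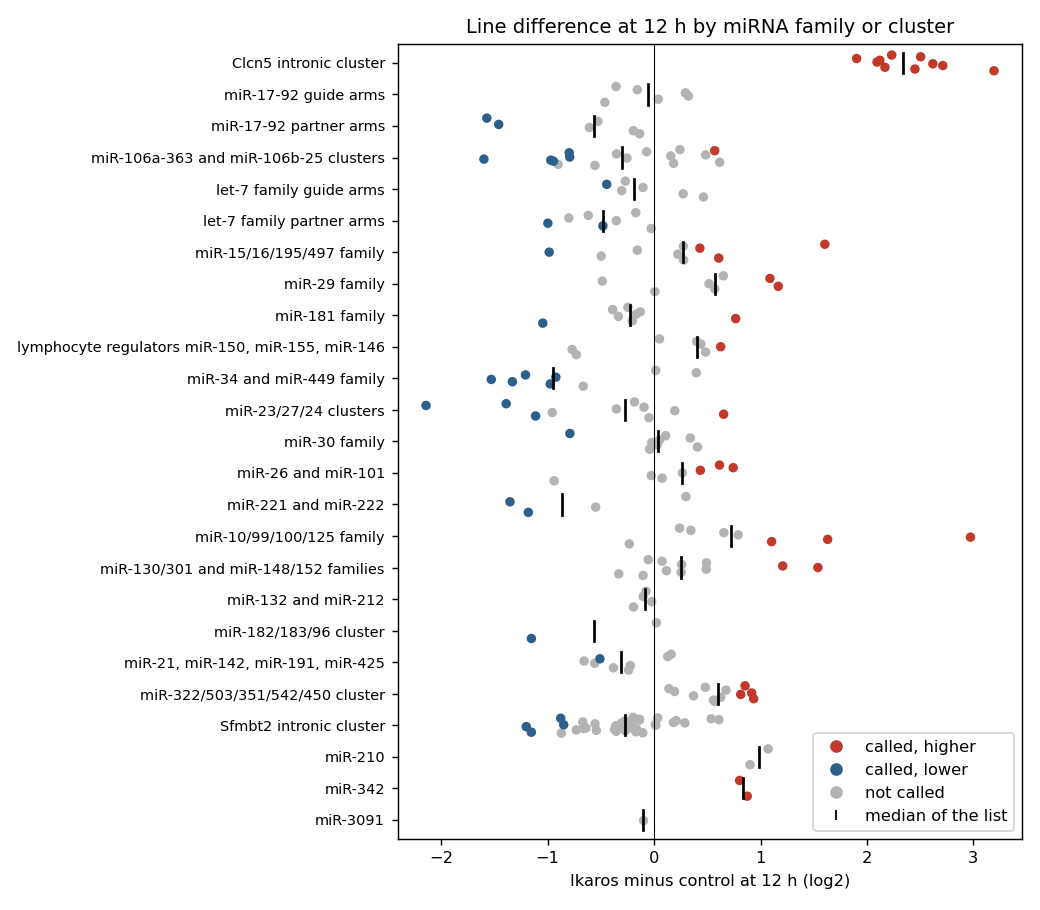
Ikaros minus control at 12 h (log2, x axis) for the members of each miRNA family or cluster (y axis), with red for called higher, blue for called lower, grey for not called and a tick for the median of the list. The 10 members of the Clcn5 cluster lie between 1.90 and 3.19, and among the other points miR-10b-5p at 2.97 alone lies in that range.

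Among the other families, those of B cell biology were mixed. The family counts from here on stand beside 12.6% of all miRNAs called higher and 9.17% called lower. The family of miR-15 and miR-16, which restrains the cell cycle, had 3 of 9 members higher and 1 lower. Its largest change was miR-497-5p at 3.59, 3.74 and 4.12 against 2.24, 1.71 and 2.69 (1.60, SE 0.26, limma adjusted p = 2.5e-05), and miR-16-5p, its most abundant member, was higher by 0.43 (limma adjusted p = 0.0164), a call that 5 of the 9 leave-out fits lost, with 0.138 without replicate 2 as the highest adjusted p. The miR-29 family, which targets DNA methyltransferases, had 2 of 7 higher. MiR-29c-3p was at 6.52, 6.26 and 6.25 against 5.29, 5.02 and 5.45 (1.09, SE 0.17, limma adjusted p = 1.6e-05). MiR-29a-3p differed by 0.01 and did not pass.

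In the miR-181 family, known for its high level in developing lymphocytes, the guide arms miR-181a-5p, miR-181b-5p, miR-181c-5p and miR-181d-5p did not pass, whereas the partner arm miR-181a-1-3p was lower, at 13.65, 13.92 and 13.35 against 14.62, 15.14 and 14.30 (-1.05, SE 0.17, limma adjusted p = 1.9e-05). MiR-181b-2-3p was called higher (0.77), but the difference was 0.35 without control replicate 1 (limma adjusted p = 0.373) and 0.19 without replicate 1 of both lines (0.710), and the call was also lost without Ikaros replicate 1 (0.166) or Ikaros replicate 4 (0.0909). Of miR-150, miR-155 and miR-146, regulators of lymphocyte responses, 1 of 7 members was called, miR-146b-5p (0.63, limma adjusted p = 0.0294), which was lost without replicate 1 or Ikaros replicate 1 (0.149 in each), control replicate 2 (0.147) or replicate 2 (0.129). Quantile normalization called 0 of these 7 higher and 2 lower. Both arms of miR-342, encoded in Evl, were higher, with miR-342-3p at 7.52, 7.88 and 7.63 against 6.92, 6.46 and 7.03 (0.88, SE 0.16, limma adjusted p = 0.000152). MiR-342-5p (0.80, limma adjusted p = 0.0376) was called in 3 of the 9 leave-out fits, with 0.270 without replicate 1 as the highest adjusted p.

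The cluster of miR-322, miR-503, miR-351, miR-542 and miR-450 on the X chromosome had a positive difference for all 12 measured members, with a median of 0.60, and 4 of them passed. Of these, miR-450a-5p was at 6.66, 6.64 and 6.65 against 5.83, 5.51 and 6.18 (0.81, SE 0.18, limma adjusted p = 0.00128). In the leave-out fits 1 to 4 of the 12 were called. The large Sfmbt2 cluster, a rodent array of miR-297, miR-466, miR-467 and miR-669, had 4 of 35 members lower and 0 higher, a share near the 9.17% of all miRNAs called lower. Over the leave-out fits 1 to 5 of the 35 were called lower, with 1 without replicate 1 or replicate 2 and 2 without Ikaros replicate 2. MiR-466d-5p kept its call in all 9, whereas miR-467e-3p lost it in 8, miR-669m-3p in 7 and miR-467c-3p in 3. The miR-26 and miR-101 list had 3 of 7 higher, with differences of 0.43 for miR-26a-5p and 0.61 for miR-26b-5p, each lost in 5 of the 9 leave-out fits (highest adjusted p 0.127 without replicate 4 and 0.169 without replicate 1), and quantile normalization called 0 of the 7. In the list of miR-10, miR-99b, miR-100 and miR-125a 3 of 8 were higher, all from the miR-10 hairpins.

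The let-7 guide arms, which oppose proliferation, had 1 of 6 members lower and the let-7 partner arms 2 of 7, with 0 higher in either list, where 9.17% of all miRNAs were called lower. The call of let-7i-5p was lost in 5 of the 9 leave-out fits (highest limma adjusted p 0.233, without replicate 2), that of let-7d-3p in 6 (0.354, without replicate 1) and that of let-7f-1-3p in 4 (0.189, without control replicate 1). In the miR-30 list 1 of 8 was lower, miR-30e-5p, which lost its call in 7 of the 9 fits (0.358 without replicate 2). In the list of miR-21, miR-142, miR-191 and miR-425 it was 1 of 8 (miR-21a-5p, -0.51, adjusted p = 0.122 without replicate 2), and of miR-182 and miR-183 it was miR-182-5p (-1.15, highest adjusted p 0.153, without replicate 2). The families of miR-130, miR-301 and miR-148 had 2 of 11 higher, both arms of miR-152, where 12.6% of all miRNAs were called higher. Of these arms, the 3p arm was lost without replicate 2 (adjusted p = 0.0681). The 5p arm was lost without replicate 4 (0.0818), Ikaros replicate 4 (0.0807) or control replicate 1 (0.0534). For miR-132 and miR-212 (4 members) and miR-3091 (1) no member passed. The 2 arms of miR-210, which responds to low oxygen, differed by 0.90 and 1.07 without overlap of the groups, and neither passed (limma adjusted p = 0.0530 and 0.177).

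Ties were looked for because replicates at exactly the same value have no spread. In the 12 h groups 33 miRNAs had at least 2 replicates tied at one exact value, 28 in the control line and 5 in the Ikaros line, with none tied in both. The tied values lay between 0.22 and 1.20, at the low end of the scale. All 3 control replicates were tied for 6 miRNAs: miR-128-2-5p at 1.09, miR-1955-3p at 0.49, miR-29b-1-5p at 0.45, miR-449a-3p at 0.54, miR-470-5p at 0.48 and miR-7668-5p at 0.50. For 4 of these the tied value was the lowest of all 36 libraries. That of miR-128-2-5p was also the exact value of all 3 control libraries of 18 h, with 8 libraries below it. That of miR-449a-3p was also the exact value of all 3 control libraries of 2 h, with 11 below it. In the Ikaros line all 5 ties were between replicates 1 and 4. In the control line replicates 2 and 4 were tied for 21 miRNAs, 1 and 2 for 10, and 1 and 4 for 9.

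Of the 33 tied miRNAs, 9 were among the 102 calls, 7 higher and 2 lower. They included 3 of the fully tied ones. MiR-128-2-5p was at 2.50, 2.28 and 2.12 in the Ikaros line, a difference of 1.21 (limma adjusted p = 0.000689), miR-29b-1-5p was at 1.15, 2.52 and 1.20 (1.17, adjusted p = 0.00432), and miR-7668-5p had a difference of 0.85 (adjusted p = 0.0120). A single Ikaros library decided both of the latter calls. Without Ikaros replicate 2 the difference of miR-29b-1-5p was 0.72 (limma adjusted p = 0.0772, and 0.12 without replicate 2 of both lines), and without Ikaros replicate 4 that of miR-7668-5p was 0.45 (0.149, and 0.209 without replicate 4 of both lines). In these 3 the control group of 12 h had no spread of its own, and the fit of the 6 libraries called 0 of the 33. With the 6 fully tied miRNAs left out the comparison counted 98, and with all 33 left out 92. The other 10 groups had 0 to 18 tied miRNAs, with the most in the control line at 2 h.

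**Figure D4:**
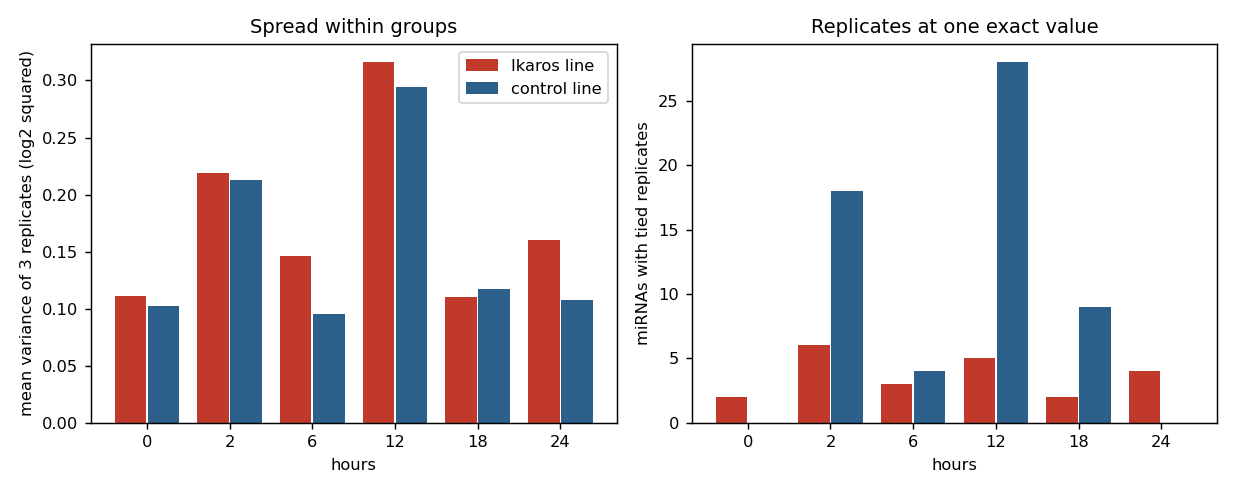
Left, the mean variance of the 3 replicates over 469 miRNAs (log2 squared) by hours, and right, the number of miRNAs with replicates tied at one exact value, with red bars for the Ikaros line and blue bars for the control line. Both 12 h groups have the tallest bars on the left, and the control line at 12 h, with 28 tied miRNAs, has the tallest bar on the right.

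The calls of 12 h were set beside those of the other times, each from its own libraries with one shared estimate of the spread. Of the 102 miRNAs, 30 were called with the same sign at 0 h, where 8.53% of all miRNAs were called. The number was 34 at 2 h (11.3% of all), 45 at 6 h (15.1%), 69 at 18 h (29.9%) and 66 at 24 h (39.9%). A call with the opposite sign was seen for 1 of them in the 0 h libraries and for 3 in those of 24 h. The 20 miRNAs called with one sign at all 6 times, 15 higher and 5 lower, included 9 of the 10 of the Clcn5 cluster, miR-10b-5p, miR-10a-3p, miR-126a-3p, both arms of miR-28a, miR-221-3p, miR-127-3p and miR-411-5p. Another 41, 21 higher and 20 lower, were called at 12 h and again at 18 h or 24 h, with no call at 0 h or 2 h. They included 5 of the miR-34 family, miR-19b-1-5p, miR-19b-2-5p, miR-181a-1-3p, miR-29c-3p, miR-497-5p and miR-15a-5p. Of these 41, the fit of the 6 libraries called 1, miR-497-5p, against 14 of the 20 called at all 6 times and 3.84% of all miRNAs. A call at some times and not at others is not a test of change. The contrasts of the line difference given below called 3 miRNAs against 2 h and 8 against 0 h.

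Calls at 12 h with none at any other time numbered 20, 14 higher and 6 lower. They included miR-27b-3p and miR-222-3p. For 14 of the 20 both line means were under 4, 3 had tied replicates, 0 were called in the fit of the 6 libraries and 0 in every leave-out fit. The line difference of miR-27b-3p was -0.56 at 6 h and -0.03 at 18 h, and that of miR-222-3p -0.43 and 0.10.

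**Figure D5:**
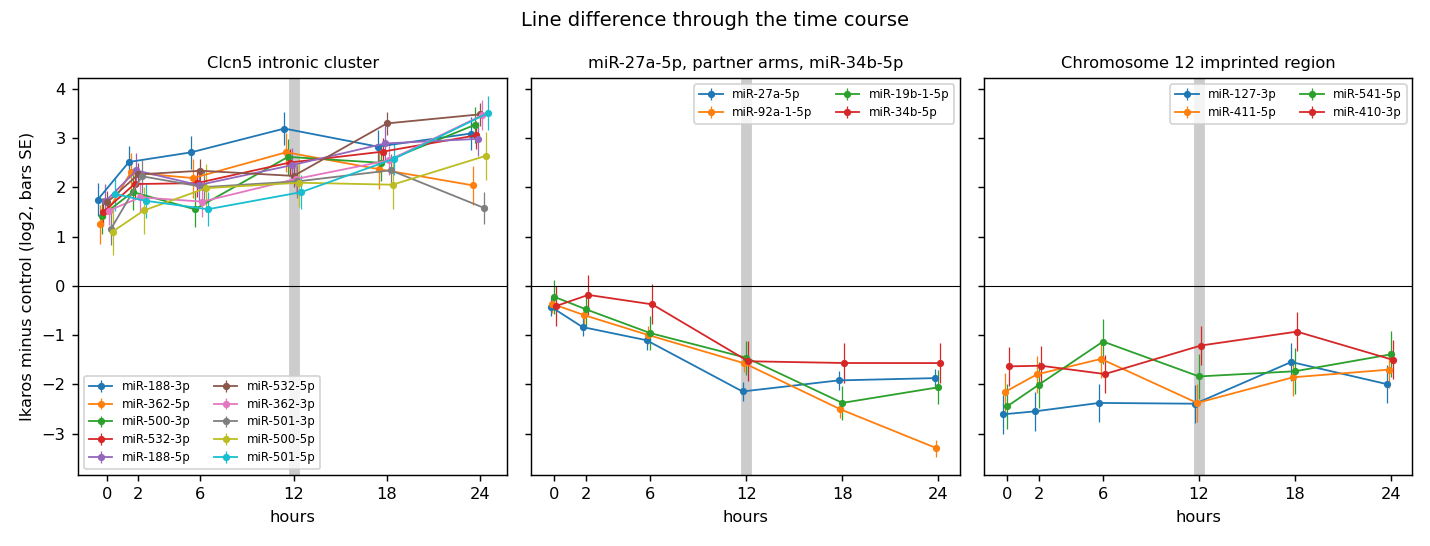
Line difference (Ikaros minus control, log2, y axis, bars SE from the model) against hours (x axis) for the Clcn5 cluster, for miR-27a-5p with partner arms of the miR-17 cluster and miR-34b-5p, and for 4 miRNAs of the chromosome 12 region, with 12 h shaded. The Clcn5 members lie above 1 at all times, the second panel starts between -0.22 and -0.42 at 0 h and lies between -1.46 and -2.14 at 12 h, and the 4 of chromosome 12 lie between -0.93 and -2.61 over all times.

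The change of the line difference was tested next. Between 2 h and 12 h, which share culture batches and the layout of sequencing occasions, 3 miRNAs (0.64%) changed in their line difference, 1 upward (0.213%) and 2 downward (0.426%). MiR-27a-5p went from -0.84 to -2.14 (change -1.31, SE 0.27, limma adjusted p = 0.0178). In the Ikaros line its values were 7.29, 7.73 and 7.97 at 2 h and 6.88, 6.51 and 6.78 at 12 h, all 3 lower, and in the control line 8.42, 8.55 and 8.53 and then 9.01, 8.82 and 8.78, all 3 higher. The others, miR-3058-3p (change -1.34, adjusted p = 0.0233) and miR-6240 (1.63, adjusted p = 0.0309), were called in the control line, where miR-6240 fell from 2.87, 2.64 and 3.73 to 1.08, 0.52 and 1.10. Its control mean was 0.90 at 12 h and 2.00 at 18 h. The count was 0 without replicate 2, Ikaros replicate 2 or replicate 4, 5 without Ikaros replicate 1 and 9 without control replicate 4. Fits of only these groups and one weight per group called 0, and per-library weights 9. At an unadjusted p under 0.05 there were 55.

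The 0 h samples come from other culture batches and received no drug, so this contrast sets treated against untreated lines. Against 0 h, 8 miRNAs (1.71%) differed in their line difference, 4 each way (0.853% each). The even split did not hold under other settings, with 1 higher and 3 lower after subtraction of sample medians, and 1 higher and 4 lower under each of quantile normalization, a pseudocount of 1 and one weight per group. Quantile normalization moved the median of all miRNAs in this contrast from 0.13 to 0.02. The 8 were miR-27a-5p (-1.72), miR-92a-1-5p (-1.21), miR-181a-1-3p (-0.97) and miR-3058-3p (-1.85) with a more negative difference at 12 h, and miR-497-5p (1.73), miR-6240 (1.47), miR-29b-1-5p (1.56) and miR-1936 (1.93) with a more positive one. The control values of miR-29b-1-5p and of miR-1936 at 12 h were tied in 3 and in 2 replicates. The count was 2 without replicate 2, 4 without replicate 1 and 5 without Ikaros replicate 2. The Clcn5 cluster was not among the 8, with line differences of 1.10 to 1.87 at 0 h.

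Whether 12 h stood apart from its neighbours in time was asked by setting its line difference against the mean of 6 h and 18 h. Limma called 0 miRNAs, with 40 at an unadjusted p under 0.05, and the smallest adjusted p was 0.0892, for miR-92a-2-5p (1.26) and miR-497-5p (1.29). Without control replicate 1, or without control replicate 4, 3 were called. No miRNA of the comparison is thus shown to be particular to 12 h.

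From 2 h to 12 h, 11 miRNAs (2.35%) changed within the Ikaros line. The 3 that rose (0.64%) were miR-151-3p (1.32), miR-26a-2-3p (1.29) and miR-181b-2-3p (1.24). The 8 that fell (1.71%) were miR-128-2-5p (-1.18), miR-30e-5p (-1.14), miR-34c-5p (-0.99), miR-27a-5p (-0.94), miR-466d-5p (-0.89), miR-92a-1-5p (-0.86), miR-146a-5p (-0.82) and miR-34a-5p (-0.71). With sample medians subtracted, which moved the median change of all miRNAs from -0.08 to 0.07, 4 were called higher and 1 lower, and 4 of these 5 were among the 11. MiR-26a-2-3p had the smallest adjusted p (0.00320, limma), at 2.93, 3.76 and 3.57 at 2 h and 4.49, 4.63 and 5.01 at 12 h. MiR-146a-5p, which damps NF-κB signalling, fell from 10.00, 10.09 and 10.48 to 9.37, 9.14 and 9.62, and its line difference was 1.16 at 2 h and 0.48 at 12 h, a change that was not among the 3 called. The count was 0 without replicate 4, 5 without replicate 2 and 7 without replicate 1, Ikaros replicate 1 or Ikaros replicate 2, and per-library weights gave 68.

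In the control line 3 miRNAs (0.64%) changed over that interval, 1 downward (0.213%) and 2 upward (0.426%), against 4 upward and 1 downward with sample medians subtracted. MiR-6240 fell by 2.18 (limma adjusted p = 2.7e-06), and miR-3058-3p rose by 0.91 (adjusted p = 0.0398) and miR-467c-3p by 1.38 (adjusted p = 0.0419). The count was 6 under the replicate block for culture, 8 without control replicate 1, 5 without control replicate 4, and 1 without control replicate 2 or Ikaros replicate 1. The difference between the changes of the 2 lines is the contrast of 2 h and 12 h given above.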

How the data were processed

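Small RNA libraries of 36 samples were analysed by the authors, per their methods, with Novoalign against mouse miRBase sequences and multiBamCov (bedtools) counting. NOISeq then served to drop miRNAs with few reads (by CPM), cqn to adjust for GC content, TMM to scale the libraries and ComBat to take out the sequencing occasion, after which repeat runs were averaged. The deposited values are log2 expression, with the base taken from their range and linear sums. Versions are not given in the sources used here, and since the table holds no counts, depth per sample is unknown. The batch correction and averaging can change the spread within groups as well as the line difference.

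Line differences were tested with limma 3.58.1 (R 4.3.3), using lmFit and a trended eBayes, with all 36 samples in one model of 12 group means, Benjamini-Hochberg adjustment over 469 miRNAs and a call at 0.05, two-sided. The fit was tested on simulated data that had one spread per miRNA in all groups, no ties and no batch. That test does not cover the wider spread and the ties of the 12 h groups. Tables and figures used Python 3.11.15, numpy 2.4.6, pandas 2.3.3, scipy 1.17.1 and matplotlib 3.10.9. The named miRNAs are the 12 largest differences each way among the called miRNAs whose 3 pairs had one sign and neither group was fully tied. Other miRNAs are named as the most abundant of a list, as fully tied or as called in a contrast, and the rest were chosen after their values were seen. The members, lists and tests were chosen with earlier results of these data known. The labels give same-numbered samples a shared culture batch, and their deviations from the group means at 12 h correlated with r = 0.245 over miRNAs (0.615, -0.003 and 0.145 for replicates 1, 2 and 4). P-values measure the spread between these cultures of 1 line each, pooled in the main fit over all 12 groups. The mean variance over all groups was 0.166, against 0.316 and 0.294 in the Ikaros and control groups of 12 h. The main p-values and SEs therefore lean on the tighter groups of other times and can understate the spread at 12 h. Sequences and hairpin coordinates are from RefSeq (GRCm38.p6) and host genes from GENCODE, matched by name: 391 of 469 miRNAs had a sequence and 371 a hairpin. The alternatives tried are given at the end.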

Additional observations from a re-analysis of the deposited data

Results flagged for a closer look

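These miRNAs had a line difference at 12 h that differed from that at another time by the limma contrast of both times (adjusted p under 0.05), with no explanation weighed. From 2 h to 12 h the line difference changed by -1.31 for miR-27a-5p (adjusted p = 0.0178), by -1.34 for miR-3058-3p (from 0.59 to -0.75, adjusted p = 0.0233) and by 1.63 for miR-6240 (from -0.60 to 1.02, adjusted p = 0.0309).

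From 0 h to 12 h it changed by -1.72 for miR-27a-5p (adjusted p = 0.000206) and by -1.85 for miR-3058-3p, which went from 1.10 to -0.75 (adjusted p = 0.000206). MiR-92a-1-5p changed by -1.21 (adjusted p = 0.00525) and reached -2.51 at 18 h and -3.29 at 24 h. MiR-181a-1-3p changed by -0.97 (adjusted p = 0.0259), from -0.08 to -1.05, and was at -0.55 at 18 h. MiR-497-5p changed by 1.73 (adjusted p = 0.00713), from -0.13 to 1.60, and was at 0.35 at 18 h. MiR-6240 changed by 1.47 (adjusted p = 0.0407). MiR-29b-1-5p changed by 1.56 (adjusted p = 0.0433) and miR-1936 by 1.93 (adjusted p = 0.0382). In the control line at 12 h, miR-29b-1-5p was tied at a low value in all 3 replicates. MiR-1936 was tied there in replicates 2 and 4 only, at 0.22, with replicate 1 at 1.62. Of the 9 fits that left out libraries, miR-1936 lost its call against 0 h in 7 (highest adjusted p 0.318, without replicate 4), miR-29b-1-5p in 7 (0.464, without replicate 2), miR-6240 in 6 (0.563, without replicate 2) and miR-181a-1-3p in 4 (0.238, without replicate 2). MiR-92a-1-5p lost it without replicate 1 or 2 (0.0661 and 0.108) and miR-497-5p without replicate 2 (0.431). The calls of miR-27a-5p and miR-3058-3p against 0 h held in all 9. Of the changes from 2 h, that of miR-27a-5p was lost in 3 of the 9 fits (highest 0.142, without replicate 2), that of miR-3058-3p in 4 (0.142, without replicate 2) and that of miR-6240 in 5 (0.233, without replicate 4).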

How the results depend on the processing

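Line difference at 12 h (102 calls). The fit of only the 6 libraries gave 18, the replicate block with only these libraries 26, and one weight per group, chosen after seeing the data, 42. Leaving out a replicate number or a library gave 59 to 108. The counts stayed within 1.5 times under all other settings tried, with 105 under the replicate block (97 shared), 104 with sample medians subtracted (69 higher, 35 lower) and 91 with quantile normalization. Of the 24 named miRNAs 14 were called under every setting and 0 changed sign. The block took the call of 0 of the 24, and the fit of the 6 libraries that of 10.

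The smaller contrasts moved more. From 2 h to 12 h (3 calls) only the groups compared gave 0 with and without the replicate block, array weights 9, one weight per group 0, and leave-outs 0 to 9. From 0 h to 12 h (8 calls) the values were 2 with only the groups compared, 1 with the replicate block and only these groups, 4 with medians subtracted, 5 with quantile normalization, with pseudocount 1 or with one weight per group, 24 with array weights, and 2 to 9 over the leave-outs. Against 6 h and 18 h (0 calls) the leave-outs gave 0 to 3. For the Ikaros line from 2 h to 12 h (11 calls) the values were 0 with only the groups compared, also with the replicate block, 5 with medians subtracted, 68 with array weights, 2 with one weight per group and 0 to 15 over the leave-outs. For the control line (3 calls) they were 0 with only the groups compared, also with the replicate block, 1 with the samples of 2 h to 24 h only, with array weights or with one weight per group, 6 with the replicate block, 5 with medians subtracted and 1 to 8 over the leave-outs. The replicate block changed no other call count by over 1.5 times. Ties to 2 decimals in place of exact ties numbered 56 against 33. The cause of these moves was not tested, beyond the fewer samples of the small fits. Depth is unknown from the table, so no limit from counting could be set.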

Other observations

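MiR-126a-3p, an endothelial miRNA that also marks blood progenitors and lies in an exon of Egfl7 (chr2:26591357-26591429, GRCm38.p6), stood at 6.93, 7.16 and 7.03 in the Ikaros line and at 5.55, 5.30 and 5.51 in the control line at 12 h. The difference was 1.59 (SE 0.18, limma adjusted p = 5.3e-08), against 1.57 at 0 h and 0.67 at 24 h. Both arms of miR-28a were higher, with miR-28a-5p at 7.31, 7.29 and 6.56 against 6.06, 5.05 and 5.31 and a difference of 1.58 (limma adjusted p = 2.5e-05). Both arms of miR-872, encoded in Ift74, were higher too, by 1.13 for miR-872-3p (limma adjusted p = 1.4e-05) and 0.79 for miR-872-5p (0.000863), and at 0 h they did not pass (0.441 and 0.384).

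The widest replicates among the abundant miRNAs, named after their values were seen, were those of miR-19b-3p and miR-19a-3p, guide arms of the miR-17 cluster. MiR-19b-3p was at 9.53, 11.34 and 16.36 in Ikaros replicates 1, 2 and 4 and at 10.30, 13.34 and 12.70 in the control line. MiR-19a-3p was at 7.16, 8.82 and 14.26 against 7.99, 11.16 and 10.13. Ikaros replicate 4 was the highest of the 6 libraries for both, as it was for miR-10a-5p and miR-10b-5p.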
